A study of Mus musculus with 24 samples.

Results

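The genes described here are 32 genes of mature migratory dendritic cells (DCs), taken from a list of symbols that leaves out chemokine receptors, B7 molecules, NF-kB genes and Apol genes. Each symbol matched 1 Ensembl identifier among the 55414 gene lines of the count files. Several of the 32 were put on the list because they rose over 24 h in these same libraries, so their change over time is given as a description and with no test. The list was made with earlier results of these data known, so p-values of the other comparisons may not be free of that choice. All 32 passed the filter on low counts, and each averaged a counts-per-million level (CPM) of at least 1 in at least 1 group.

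Messenger RNA was sequenced from bone marrow-derived mouse DCs in 24 libraries, 3 in each of 8 groups. FL cultures grew until day 16 with FLT3L at 200 ng/ml, which DC progenitors need, on top of 20 ng/ml of GM-CSF. They were harvested at that start (FL t0), after 24 h with the solvent DMSO (FL DMSO) or after 24 h with 0.05 µM AZD5582 (FL 0.05 µM). GM cultures grew until day 8 with 20 ng/ml of GM-CSF alone and gave GM t0, GM DMSO, and AZD5582 at 0.1, 0.5 and 1 µM for 24 h. AZD5582 antagonises the inhibitor of apoptosis proteins, and such compounds are known to release non-canonical NF-kB signalling. The marrow donors were C57BL/6JRj mice, either wild type or carrying Cas9-EGFP, and the sources used here do not assign a genotype to each library. FL libraries carry the culture numbers 91, 94 and 95, whereas the titles of the GM libraries share 1 culture number, so whether GM replicates came from separate animals is not known. Their p-values then measure the spread between these samples only, which may be technical. The question put to the 32 genes is which of them rose with time alone and which rose only with AZD5582.

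As background, a DC that matures stops taking up antigen, reorganises its actin cytoskeleton, raises its costimulatory molecules and travels through lymph to the T cell zones of lymph nodes. Fscn1, which bundles actin filaments in the long dendrites of such cells, is among its best known marks, together with the chemokine receptor gene Ccr7. DCs in culture also mature in part without any stimulus, for instance when clusters of cells are disturbed, and non-canonical NF-kB signalling is one of the pathways that drive the programme.

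Sequencing depth was 27012555 to 85820558 gene counts per library, and the share of mitochondrial transcripts was 1.38% to 8.04%, highest in GM 1 µM replicate 1. Genes of the DC list (6 of 6) were present in both culture types, with a summed level of 17530 to 22990 CPM at FL t0 and 12850 to 14390 CPM at GM t0. The 8 cDC1 genes summed to 2220 to 5282 CPM at FL t0 and 512.1 to 636.6 CPM at GM t0. Of the cDC1 markers, Xcr1 had 0 counts in all 3 libraries of GM 0.5 µM and of GM 1 µM. The 8 together summed to 2030 to 2177 CPM at GM 1 µM and to 789.4 to 932.7 CPM in GM DMSO (7 tested, 2 called higher and 3 lower). Over all libraries the 5 mast cell or basophil genes summed to between 29.2 and 1278 CPM, B cell genes to at most 21.1 CPM, T cell genes to at most 7.34 CPM, NK cell genes to at most 5.64 CPM and plasmacytoid DC genes to at most 353.0 CPM.

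In the GM cultures 30 of the 32 genes were called higher after 24 h in DMSO and higher again with 1 µM AZD5582 (12.9% of all 16152 genes tested were). The exceptions were Slco5a1, which was higher over 24 h and was not called with AZD5582, and Dapk2, which was higher with AZD5582 and not over 24 h (14.3% and 14% of all genes were in these classes). Calls rest on an adjusted p below 0.05 from the quasi-likelihood test of edgeR, with the Benjamini-Hochberg method applied to every gene tested. With a further demand of a 2-fold change, 25 genes were higher at both steps. Under that demand 4 were higher over 24 h only (Anxa3, Slco5a1, Il4i1 and Mab21l3) and 3 with AZD5582 only (Socs2, Stat5a and Dapk2). The shares of all genes in these 3 classes were 4.4%, 7.68% and 5.95%, and since the rise over time helped to choose the genes, nothing is read from the class counts.

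**Figure D1:**
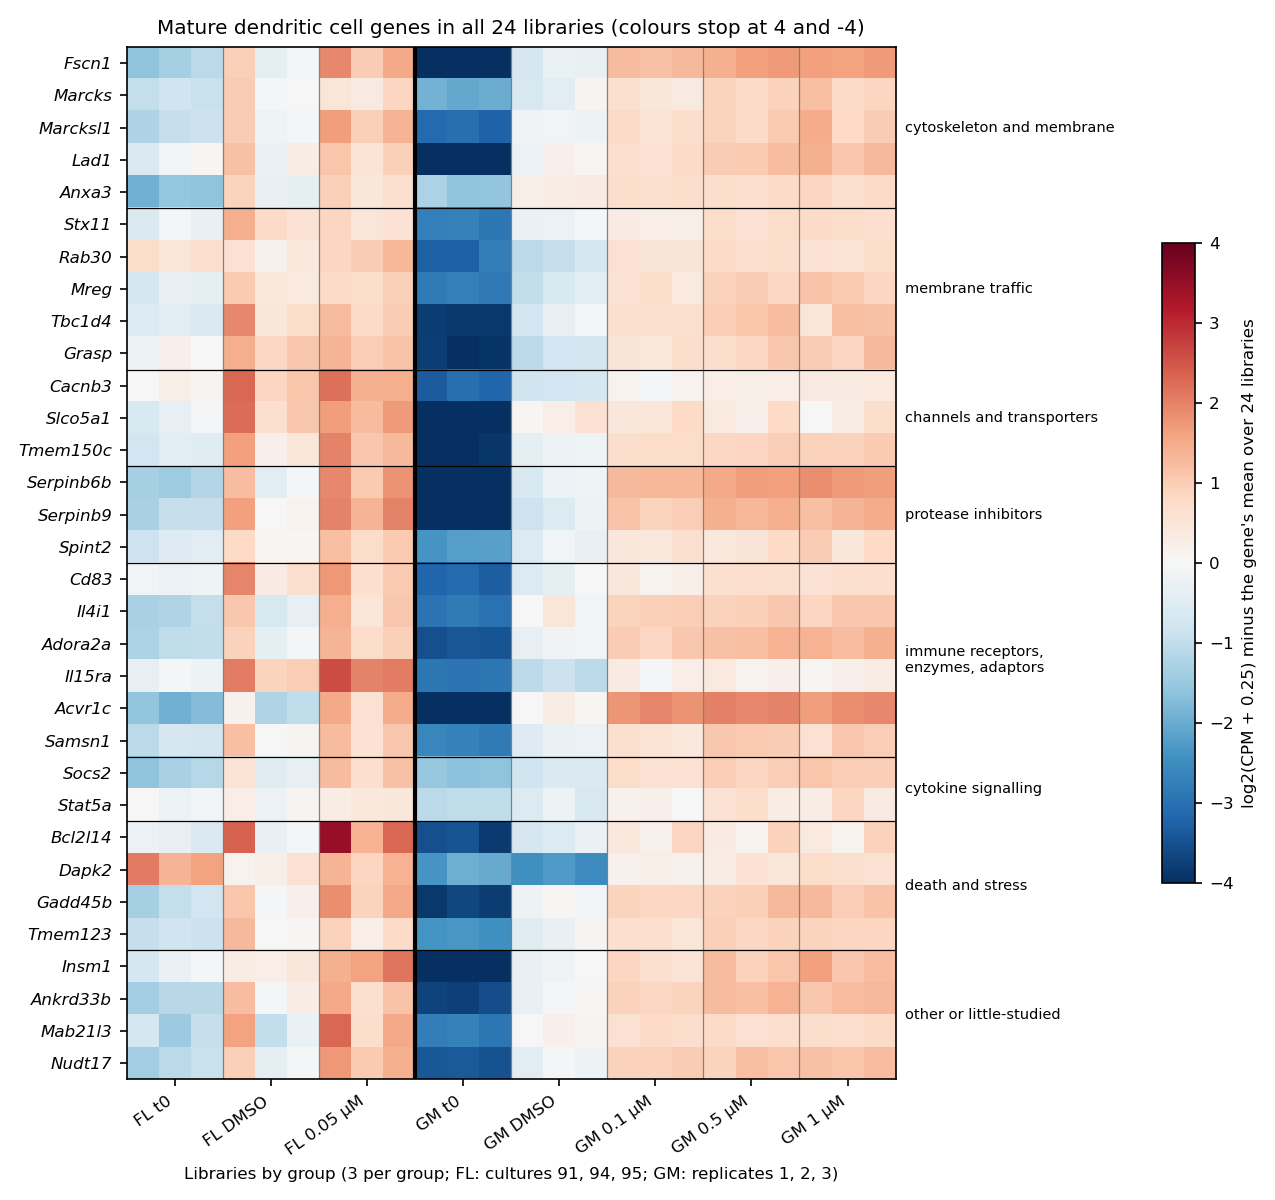
Level of each of the 32 genes (rows, grouped by role) in each of the 24 libraries (columns), as log2(CPM + 0.25) minus the mean of that gene over all libraries. Colours stop at 4 and -4. The GM t0 columns are blue in nearly every row, the GM columns with AZD5582 are mostly red, and the first FL DMSO column (culture 91) is redder than its 2 neighbours in most rows.

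After 24 h in DMSO, 31 of the 32 genes were called higher than at t0 in the GM cultures, where 27.2% of the 16152 genes tested were called higher. One, Dapk2, was called lower, against 20.3% of all genes. Every DMSO library was above every t0 library for 31 of the 32 (33.9% of all genes) and below for none (25.9% of all genes). A rise over time helped to choose the genes, so nothing is read from these counts. The log2 difference ran from -0.33 for Dapk2 to 6.66 for Acvr1c with a median of 3.02, and the median over all genes tested was 0.09. Time and exposure to the solvent differ together in this contrast and cannot be told apart. In the same libraries the 9 monocyte or macrophage genes summed to 28500 to 34920 CPM in GM DMSO and to 18990 to 24330 CPM at GM t0 (7 called higher, 1 lower), and their part was not tested. Members nearest to no change were Stat5a (0.59) and Socs2 (0.93) above it and Dapk2 below it.

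AZD5582 raised 31 of the 32 genes over GM DMSO at 0.1 µM, at 0.5 µM and at 1 µM, and lowered none at any dose. Of the 16152 genes tested, the share called higher was 19.9% at 0.1 µM, 25.8% at 0.5 µM and 26.9% at 1 µM, and the share called lower was 20.3%, 27.7% and 28.2%. For the 31 genes, every library with the compound lay above every DMSO library at each dose, as did 22.3%, 26.1% and 23.1% of all genes, and none of the 32 lay below it, as did 30.5%, 36.7% and 34.7% of all genes. The median log2 difference of the 32 was 1.03 at 0.1 µM, 1.28 at 0.5 µM and 1.36 at 1 µM, while the medians over all genes were -0.01, -0.03 and -0.01. A rise of at least 2-fold was reached by 17 genes at 0.1 µM, 26 at 0.5 µM and 28 at 1 µM, and by 7.11%, 9.92% and 10.3% of all genes. These comparisons use the DMSO libraries of the contrast over time, and the genes were chosen with earlier results of these data known. In a model of all 24 libraries, whose shared spread is larger, 24, 28 and 28 genes were called higher at 0.1, 0.5 and 1 µM.

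**Figure D2:**
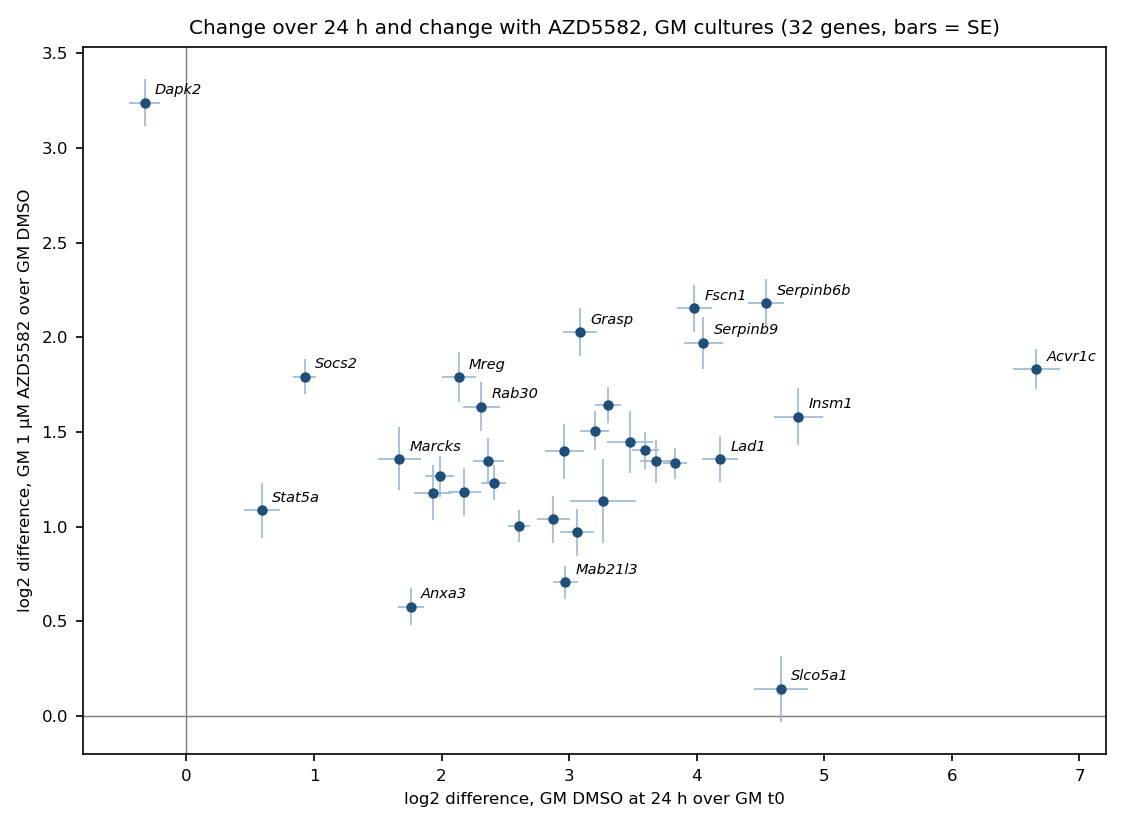
Log2 difference of GM DMSO over GM t0 (x axis) and of GM 1 µM AZD5582 over GM DMSO (y axis) for the 32 genes, with bars for the standard error. The 2 axes share the DMSO libraries. Dapk2 stands at the upper left (-0.33 and 3.24) and Slco5a1 at the lower right (4.66 and 0.14), and all others lie to the right of 0 on the x axis and above 0 on the y axis.

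Macrophage and neutrophil transcripts moved with AZD5582 in the same libraries. The 9 monocyte or macrophage genes summed to 3861 to 5101 CPM at GM 1 µM and to 28500 to 34920 CPM in GM DMSO, and 9 of 9 were called lower. The 7 neutrophil genes summed to 5.58 to 13.1 CPM at GM 1 µM and to 345.3 to 573.1 CPM in GM DMSO, and 7 of 7 were called lower, with Elane at 0 counts at 1 µM. The 6 DC genes summed to 7264 to 9054 CPM at GM 1 µM and to 10740 to 13970 CPM in GM DMSO (2 called higher, 4 lower). In bulk RNA, fewer cells of a type and less RNA per cell cannot be told apart, and the part of these shifts in the results for the 32 genes was not tested.

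Among genes of the cytoskeleton and membrane, all 5 were higher with AZD5582 at each dose in the GM cultures. Fscn1 (ENSMUSG00000029581) had 165.7, 190.5 and 168.6 CPM at GM t0 and 2312, 3043 and 2990 CPM in GM DMSO. It had 8721, 8308 and 9084 CPM at 0.1 µM, 9755, 11390 and 11960 CPM at 0.5 µM and 11430, 11080 and 11930 CPM at 1 µM. The t0, the DMSO and the AZD5582 libraries formed 3 blocks that did not overlap. The rise was 3.98 ± 0.14 (log2 ± SE) over 24 h and a further 2.15 ± 0.13 at 1 µM over DMSO (edgeR adjusted p = 1.46e-10), in all 70.2-fold.

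Lad1 (ENSMUSG00000041782), which encodes ladinin, a protein of anchoring filaments, had 5.34, 6.62 and 6.39 CPM at GM t0 and 94.2, 127.1 and 114.3 CPM in GM DMSO. Its levels were 176.4, 163.8 and 189.0 CPM at 0.1 µM, 223.6, 224.9 and 258.1 CPM at 0.5 µM and 292.6, 231.5 and 272.0 CPM at 1 µM. Groups did not overlap from t0 up to 0.5 µM, whereas the ranges at 0.5 and 1 µM did. Its log2 change was 4.18 ± 0.14 over 24 h and 1.36 ± 0.12 at 1 µM (edgeR adjusted p = 3.29e-08).

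Marcks and Marcksl1 encode related membrane-bound proteins that bind actin and calmodulin and are substrates of protein kinase C. Marcks averaged 1954 ± 313 CPM at GM 1 µM and 824 ± 242 CPM in GM DMSO (SD, n = 3 each), and Marcksl1 averaged 1848 ± 451 and 759 ± 17.5 CPM in the same groups. Anxa3, an annexin that binds phospholipids in the presence of calcium, had the smallest response of those called at 1 µM. It averaged 709 ± 57.0 CPM at GM 1 µM and 513 ± 12.9 CPM in GM DMSO (log2 0.58 ± 0.10, edgeR adjusted p = 7.84e-05), with exons that overlap the predicted gene Gm42603 on the same strand.

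The promoters of Fscn1 and Dapk2 are shown because these 2 genes mark the contrast between a gene that rose at both steps and one that rose only with the compound. Each line holds the 250 bases before the start that RefSeq gives on GRCm38.p6, on the + strand, at chr5:142960105-142960354 for Fscn1 and chr9:66157976-66158225 for Dapk2.
Fscn1: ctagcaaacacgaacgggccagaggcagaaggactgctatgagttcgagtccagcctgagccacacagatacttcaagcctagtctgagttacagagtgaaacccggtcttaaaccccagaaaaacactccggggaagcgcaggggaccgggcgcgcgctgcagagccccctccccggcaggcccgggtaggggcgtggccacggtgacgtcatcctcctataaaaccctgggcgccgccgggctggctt
Dapk2: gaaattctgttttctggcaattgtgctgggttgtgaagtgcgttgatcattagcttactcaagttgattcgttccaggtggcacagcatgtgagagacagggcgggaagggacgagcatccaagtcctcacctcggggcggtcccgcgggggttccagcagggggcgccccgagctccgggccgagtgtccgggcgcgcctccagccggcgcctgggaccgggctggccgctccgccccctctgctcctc
No base is in capitals because none of the motifs searched was found in either. Both windows are rich in G and C, with 62.4% for Fscn1 and 65.2% for Dapk2 against a median of 52.4% over 32851 mouse windows of the same length, and with 18 and 20 CG pairs against a median of 6.

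RefSeq windows were found for 24 of the 32 genes, 33 windows in all because some genes have several starts. A kB motif (GGGA or GGGG, then any 2 bases, then TTCC, or GGGA, any 2 bases and CCCC, on both strands) was in 0 of the 33, and in 3.78% of all windows. The STAT motif TTCNNNGAA was in 0 of the 33 and in 7.02% of all windows. The AP-1 motif TGANTCA was in 1 window, that of Il15ra, and in 6.75% of all windows. These counts say only which letters lie in these windows.

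All 5 genes of membrane traffic were higher with AZD5582 at each dose. Grasp (ENSMUSG00000000531), which encodes the scaffold protein tamalin, had 7.03, 5.83 and 6.33 CPM at GM t0 and 47.9, 57.5 and 58.9 CPM in GM DMSO. It had 140.6, 131.6 and 160.2 CPM at 0.1 µM, 161.0, 177.4 and 207.2 CPM at 0.5 µM and 201.8, 178.8 and 240.9 CPM at 1 µM. The 3 groups with the compound lay above DMSO without overlap, and the ranges at 0.5 and 1 µM overlapped. The log2 change was 3.09 ± 0.14 over 24 h and 2.03 ± 0.13 at 1 µM (edgeR adjusted p = 2.73e-10).

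Mreg (melanoregulin, a gene of lysosome-related organelles) averaged 717 ± 68.5 CPM at GM 1 µM and 224 ± 43.1 CPM in GM DMSO. Rab30, a small GTPase of the Golgi, averaged 29.3 ± 2.07 CPM at GM 1 µM and 10.2 ± 1.36 CPM in GM DMSO. Tbc1d4, an inhibitor of Rab GTPases known from glucose transporter traffic, averaged 1287 ± 327 and 507 ± 120 CPM in the same groups. Stx11, a SNARE protein needed for granule release by human killer cells, averaged 131 ± 4.45 and 70.5 ± 5.38 CPM. Their log2 differences at 1 µM lay between 1.00 (Stx11) and 1.79 (Mreg).

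Among the channel and transporter genes, Slco5a1 (ENSMUSG00000025938), a member of the organic anion transporter family, was the 1 gene of the 32 not called with AZD5582. It had 2.90, 2.27 and 2.36 CPM at GM t0 and 53.2, 61.7 and 77.5 CPM in GM DMSO. Its levels were 69.5, 71.0 and 87.8 CPM at 0.1 µM, 67.0, 58.5 and 88.1 CPM at 0.5 µM and 51.1, 63.0 and 83.4 CPM at 1 µM. All 12 libraries taken after 24 h lay far above t0, and the groups with the compound overlapped DMSO at each dose. The log2 change was 4.66 ± 0.21 over 24 h. Over DMSO it was 0.32 ± 0.17 at 0.1 µM, 0.24 ± 0.17 at 0.5 µM and 0.14 ± 0.17 at 1 µM (edgeR adjusted p = 0.165, 0.256 and 0.514). At 0.1 µM it was called when no filter on low counts was used (edgeR adjusted p = 0.0425). It was also called there with the replicate numbers as a block (edgeR adjusted p = 0.0392), although these did not meet the rule for pairing.

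Cacnb3, a subunit of voltage-gated calcium channels, averaged 875 ± 11.03 CPM at GM 1 µM and 402 ± 14.3 CPM in GM DMSO. Tmem150c, a membrane protein linked to mechanically activated currents, averaged 98.2 ± 4.71 and 42.0 ± 3.25 CPM in the same groups and overlaps an antisense gene, from which its reads may not be separable.

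The 3 protease inhibitor genes were higher with AZD5582 at each dose. Serpinb6b (ENSMUSG00000042842) encodes an intracellular serpin of clade B. It had 31.9, 36.6 and 28.6 CPM at GM t0 and 623.7, 815.4 and 841.1 CPM in GM DMSO. It had 2318, 2367 and 2377 CPM at 0.1 µM, 2697, 3034 and 2987 CPM at 0.5 µM and 3457, 3086 and 3034 CPM at 1 µM. Here too t0, DMSO and the compound formed 3 blocks without overlap, and the log2 change was 4.54 ± 0.14 over 24 h and 2.18 ± 0.13 at 1 µM (edgeR adjusted p = 1.47e-10), in all 106-fold.

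Serpinb9 (ENSMUSG00000045827) encodes the inhibitor of granzyme B, which is known to protect DCs from the killer cells they prime. It had 36.04, 42.38 and 35.31 CPM at GM t0 and 502.7, 620.8 and 774.5 CPM in GM DMSO. Its levels were 1975, 1675 and 1781 CPM at 0.1 µM, 2395, 2270 and 2485 CPM at 0.5 µM and 2060, 2317 and 2535 CPM at 1 µM. Every library with the compound was above every DMSO library, and the ranges at 0.5 and 1 µM overlapped. Its log2 change was 4.05 ± 0.15 over 24 h and 1.97 ± 0.14 at 1 µM (edgeR adjusted p = 1.38e-09). Both serpins belong to a mouse family with near-identical copies, so the split of reads between copies is uncertain. Spint2, an inhibitor of membrane serine proteases, averaged 330.4 ± 64.7 CPM at GM 1 µM and 157.5 ± 23.81 CPM in GM DMSO.

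All 6 genes of immune receptors, enzymes and adaptors were higher with AZD5582 at each dose. Acvr1c (ENSMUSG00000026834), a type I receptor of the TGF-beta superfamily, had 0.0748, 0.0988 and 0.0651 CPM at GM t0, 15 counts in the 3 libraries together, and 7.54, 9.36 and 8.04 CPM in GM DMSO. It had 26.3, 30.4 and 27.2 CPM at 0.1 µM, 31.74, 29.52 and 31.03 CPM at 0.5 µM and 24.8, 28.5 and 29.3 CPM at 1 µM. It was close to undetected at t0 and low in DMSO, and all 9 libraries with the compound lay above DMSO, with those at 1 µM below those at 0.5 µM. The log2 change was 6.66 ± 0.18 over 24 h and 1.83 ± 0.11 at 1 µM (edgeR adjusted p = 1.34e-10), and an antisense gene overlaps it.

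Adora2a, an adenosine receptor known to dampen immune cells, averaged 215 ± 13.7 CPM at GM 1 µM and 74.4 ± 5.80 CPM in GM DMSO (log2 1.64 ± 0.09). Il15ra, which holds IL-15 at the DC surface for T and NK cells, averaged 51.6 ± 4.60 and 23.1 ± 1.80 CPM, and Cd83, which stabilises MHC class II and CD86 at the surface, 1104 ± 26.9 and 579 ± 112 CPM. Samsn1, an adaptor of blood cells, averaged 1041 ± 175 and 439 ± 47.1 CPM in the same groups. Il4i1, a secreted amino acid oxidase, averaged 1394 ± 116 and 766 ± 175 CPM (log2 0.97 ± 0.12) and shares exons with Nup62 on the same strand.

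In the GM cultures both genes of cytokine signalling changed less over 24 h than with 1 µM AZD5582. Socs2, a feedback inhibitor of cytokine receptors, averaged 125 ± 5.53 CPM at GM t0, 240 ± 19.7 CPM in GM DMSO and 770 ± 40.3 CPM at 1 µM. Its log2 change was 0.93 ± 0.09 over 24 h and 1.79 ± 0.09 with 1 µM (edgeR adjusted p = 4.30e-11). Stat5a, a transcription factor that GM-CSF and other cytokines activate, averaged 53.6 ± 1.22 CPM at GM t0, 81.3 ± 13.7 CPM in GM DMSO and 160 ± 36.2 CPM at 1 µM. Its change was 0.59 ± 0.14 over 24 h and 1.09 ± 0.14 with 1 µM (edgeR adjusted p = 4.84e-06). Stat3 overlaps it on the other strand, and the sources used here do not say whether the counting used strand. In FL cultures 91, 94 and 95 the log2 ratio of Socs2 was 2.15, 0.83 and 0.83 for DMSO over t0. It was 0.73, 1.15 and 1.49 for 0.05 µM over DMSO. The ratios of Stat5a were 0.28, -0.01 and 0.22, then 0.03, 0.65 and 0.36.

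Among the genes of death and stress, Dapk2 (ENSMUSG00000032380) had the largest response of the 32 to AZD5582 in the GM cultures. It encodes a calmodulin-regulated kinase linked to cell death and autophagy. Its levels were 4.85, 6.54 and 6.20 CPM at GM t0 and 4.50, 5.22 and 4.34 CPM in GM DMSO. It had 29.3, 30.3 and 29.3 CPM at 0.1 µM, 32.1, 38.8 and 36.2 CPM at 0.5 µM and 43.1, 40.9 and 39.6 CPM at 1 µM. The t0 and DMSO ranges overlapped, and the lowest library with the compound was far above the highest DMSO library. The log2 difference of DMSO over t0 was -0.33 ± 0.12, a fall that was no longer called without GM t0 replicate 2 or 3 or without GM DMSO replicate 1 or 3. The rise over DMSO was 2.73 ± 0.12 at 0.1 µM, 3.02 ± 0.12 at 0.5 µM and 3.24 ± 0.12 at 1 µM (edgeR adjusted p = 8.74e-11, 6.72e-12 and 2.45e-12).

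Gadd45b, a stress-induced protein that acts on p38 and JNK signalling, averaged 554 ± 59.0 CPM at GM 1 µM and 236 ± 21.6 CPM in GM DMSO. Tmem123, a cell surface glycoprotein linked to cell death in human cells, averaged 4695 ± 53.7 and 2230 ± 470 CPM in the same groups. Bcl2l14, a member of the BCL2 family, averaged 34.4 ± 9.85 and 16.9 ± 2.47 CPM (log2 1.14 ± 0.22, edgeR adjusted p = 3.67e-04).

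**Figure D3:**
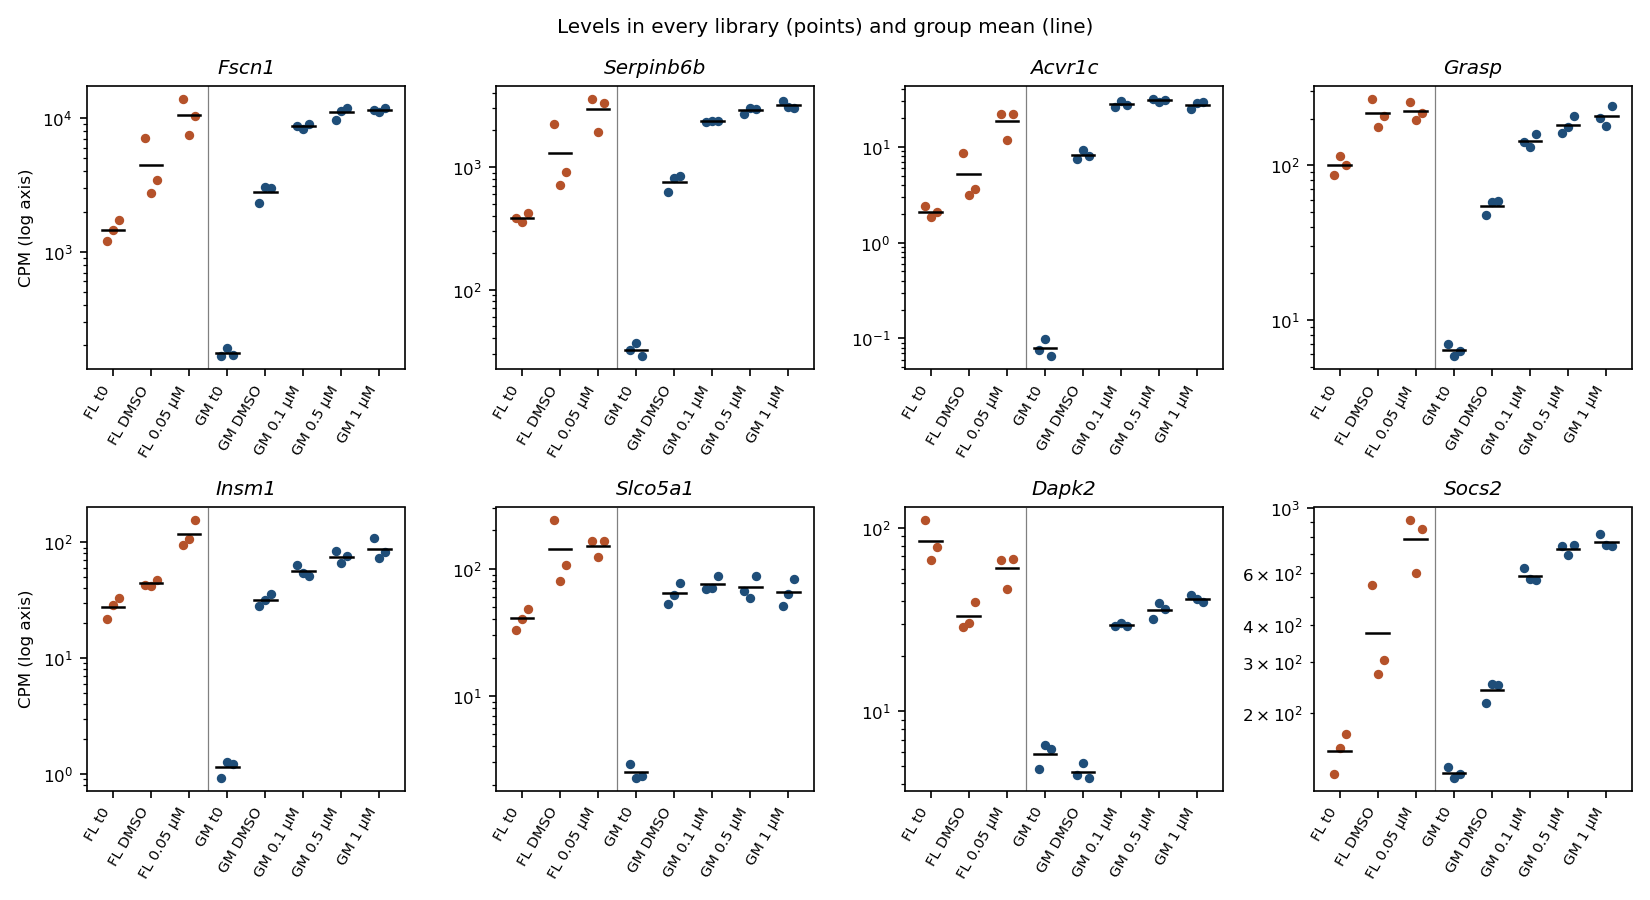
CPM on a log axis of 8 of the genes in every library (points) with the group mean (line), FL groups at the left and GM groups at the right of each panel. Fscn1, Serpinb6b, Acvr1c and Grasp step up from GM t0 to GM DMSO and again with AZD5582, Slco5a1 steps up only once, Dapk2 only with the compound, and at FL t0 Dapk2 is above every GM group.

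Insm1 (ENSMUSG00000068154), a zinc-finger transcription factor known from neuroendocrine cells, had 0.928, 1.27 and 1.22 CPM at GM t0 and 28.3, 31.7 and 35.6 CPM in GM DMSO. It had 63.3, 54.5 and 51.0 CPM at 0.1 µM, 83.4, 66.0 and 75.5 CPM at 0.5 µM and 108.9, 73.1 and 82.3 CPM at 1 µM. No group overlapped the next up to 0.5 µM, and 0.5 and 1 µM overlapped. Its log2 change was 4.80 ± 0.19 over 24 h and 1.58 ± 0.15 at 1 µM (edgeR adjusted p = 7.51e-08). The little-studied genes Ankrd33b (248 ± 19.0 and 101 ± 12.6 CPM at GM 1 µM and in GM DMSO) and Mab21l3 (44.8 ± 1.30 and 29.6 ± 2.23 CPM) also rose. So did Nudt17 of the Nudix hydrolase family, with 374 ± 16.1 and 142 ± 16.9 CPM, and Pias3 overlaps it on the other strand.

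For the 31 genes whose 2 changes were both positive, the log2 rise over 24 h was set against the whole log2 rise of GM 1 µM over GM t0. The rise over 24 h made up a median of 67.9% of the whole, from 34.1% for Socs2 to 97.0% for Slco5a1, and exceeded 50% in 29 of them. The change with AZD5582 was the larger one in 3 genes, Dapk2, Socs2 and Stat5a. As the genes were picked partly for their rise over time, these shares describe this list only.

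The steps between doses use no t0 or DMSO library, and so none of a contrast over time. The 32 genes were nonetheless chosen with earlier results of these data known, so these steps may not be free of that choice. From 0.1 to 0.5 µM, 7 of the 32 genes were called higher and none lower, where 2.98% of all genes were called higher and 8.47% lower. The genes were Stx11 (log2 0.46 ± 0.08, edgeR adjusted p = 0.00121), Samsn1 (0.53 ± 0.12, edgeR adjusted p = 0.0053), Ankrd33b (0.42 ± 0.10, edgeR adjusted p = 0.00701), Lad1 (0.44 ± 0.12, edgeR adjusted p = 0.0232), Socs2 (0.33 ± 0.09, edgeR adjusted p = 0.0265), Adora2a (0.30 ± 0.09, edgeR adjusted p = 0.0419) and Cd83 (0.39 ± 0.12, edgeR adjusted p = 0.045). The median difference over the 32 genes was 0.31, and 0.00 over all genes. For 23 of the 32 every library at 0.5 µM was above every library at 0.1 µM, as for 14.1% of all genes, and for none was it the reverse (19.1% of all genes). The count of calls depended on the model, with 0 in the model of all 24 libraries, 17 by DESeq2 and 18 with the 2 groups alone, and 3 to 7 when 1 library was left out (3 without replicate 2 or 3 at 0.1 µM, 4 without replicate 1 or 3 at 0.5 µM). Stx11, Samsn1 and Ankrd33b were called in all 6 of those fits. The 9 monocyte or macrophage genes moved at this step too, with 8 of 9 called lower, and their part was not tested.

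From 0.5 to 1 µM, 0 of the 32 genes and 0% of all genes were called by edgeR, although 870 of the 16152 genes had an unadjusted p under 0.05, and none of the 32 did. DESeq2 called 8 genes among all, and the edgeR test with no filter on low counts called 77. The median difference of the 32 was 0.07, from -0.15 for Acvr1c to 0.25 at most. Dapk2 and Cacnb3 at 1 µM lay above 0.5 µM without overlap (as 3.13% of all genes) and Acvr1c below it (as 6.22%).

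**Figure D4:**
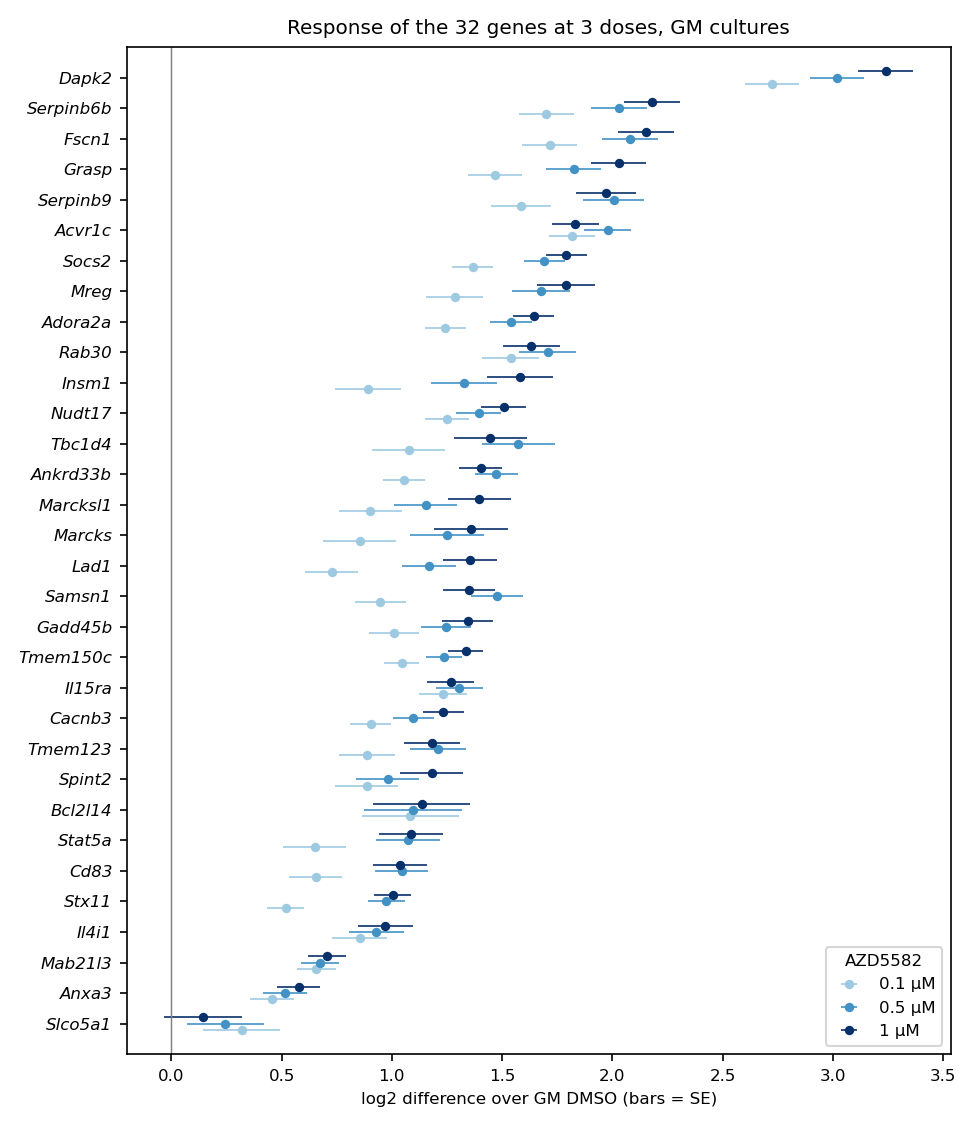
Log2 difference over GM DMSO of each of the 32 genes at 0.1, 0.5 and 1 µM AZD5582 (light to dark), with bars for the standard error and genes ordered by the value at 1 µM. Values at 0.5 µM mostly lie to the right of those at 0.1 µM and close to those at 1 µM, and Slco5a1 at the bottom stays within about 2 standard errors of 0 at each dose.

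At the start the FL cultures already held more transcript of most of these genes than the GM cultures. FL t0 was higher than GM t0 for 30 of the 32 genes, where 23.4% of the 17262 genes tested were called higher, and lower for none (17.5% of all genes). The GM t0 libraries may have helped to choose the genes, so this is a description. Culture type, day of culture and culture number differ together here and cannot be told apart. The 9 monocyte or macrophage genes summed to 762.8 to 935.9 CPM at FL t0 and to 18990 to 24330 CPM at GM t0 (9 of 9 called lower). The 7 neutrophil genes summed to 1209 to 4094 CPM at FL t0 and to 268.8 to 325.8 CPM at GM t0 (7 of 7 called higher), and the part of both was not tested. The median log2 difference was 2.78, and 0.09 over all genes. Anxa3 (-0.21) and Socs2 (0.25) were the 2 not called. Dapk2 had 110.2, 66.6 and 78.9 CPM at FL t0, against 4.85, 6.54 and 6.20 CPM at GM t0, and Fscn1 had 1207, 1467 and 1728 CPM at FL t0, against 165.7, 190.5 and 168.6 CPM at GM t0. The mean of FL t0 was nonetheless below the mean of GM DMSO for 23 of the 32 genes. The mean of FL 0.05 µM was below that of GM 1 µM for 12 of the 32, at doses that differ. Shares over all genes were not computed for these counts of means, and the GM DMSO libraries may have helped to choose the genes. Nothing is read from either count.

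After 24 h in DMSO, 21 of the 32 genes were called higher than at t0 in the FL cultures (4.96% of all 15961 genes were) and 1, Dapk2, lower (5.18% of all genes). With the culture number as a block, which pairs libraries of the same culture, the counts were 25 higher (9.23% of all genes) and 1 lower (10.2%). For 26 genes each DMSO library was above each t0 library (18.6% of all genes), and for Dapk2 below (22% of all genes). The genes were picked in part for a rise over time, so no test is drawn from these counts. The median log2 difference was 1.38. It was 2.26 in culture 91, 0.71 in culture 94 and 0.85 in culture 95. Leaving out culture 91 was a choice made after seeing the data. Without it there were again 21 called higher (4.39% of all genes) and 1 lower (6.15%), with a median of 0.80. The calls depended on single libraries, with 0 higher when any 1 of the 3 t0 libraries was left out, and 13, 23 and 9 higher without the DMSO library of culture 91, 94 and 95. The 6 DC genes summed to 8983 to 12770 CPM in FL DMSO and to 17530 to 22990 CPM at FL t0 (0 called higher, 3 lower). In the same groups the 7 neutrophil genes summed to 1965 to 9485 CPM and 1209 to 4094 CPM (0 of 7 called). The 8 cDC1 genes summed to 915.0 to 1680 CPM and 2220 to 5282 CPM (1 called higher, 2 lower). The part of these lists was not tested.

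Culture 91 stood apart in these genes after 24 h. Its library was the highest of the 3 FL DMSO libraries for 30 of the 32 genes and of the 3 with AZD5582 for 25. At FL t0 it was the lowest for 23. The DMSO library of culture 91 was above the culture 94 library with AZD5582 for 24 of them and above the culture 91 library with AZD5582 for 10. In culture 94 the DMSO library was above the library with AZD5582 for 1 gene, and in culture 95 for none. Shares over all genes were not computed for these counts, so whether they are particular to the 32 genes is not known. The 7 neutrophil genes summed to 1965 CPM in the DMSO library of culture 91, 9485 CPM in that of culture 94 and 3808 CPM in that of culture 95. At FL t0 the cDC1 genes summed to 5282 CPM in culture 91, 2220 CPM in culture 94 and 2568 CPM in culture 95. The part of these differences was not tested.

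With 0.05 µM AZD5582 in the FL cultures, 1 of the 32 genes, Insm1, was called higher over FL DMSO when all 3 cultures were used, and none was called lower (1.62% and 1.28% of all genes). The spread between libraries was larger in the FL than in the GM model (biological coefficients of variation 0.39 and 0.146). In simulated counts this FL test recovered 1% of log2 changes of 1, so a gene not called may still have responded. With the culture number as a block it was 4 genes, Insm1, Acvr1c, Rab30 and Dapk2, and none lower (3.69% and 3.19% of all genes). Without culture 91 it was 21 genes and none lower (8.03% and 6.05% of all), and without culture 91 and with the block 28 genes and none lower (12.8% and 11.6% of all). Leaving it out was chosen after seeing the data and keeps only cultures 94 and 95. No conclusion is drawn from these fits, and p-values given below without culture 91 are a description. With all cultures, 14 of the 32 genes and 2790 of all genes had an unadjusted p under 0.05. Each library with AZD5582 was above each DMSO library for 8 genes (9.7% of all genes) and below for none (9.09%). The median log2 difference was 0.66 with all cultures and 0.90 without culture 91, against -0.05 over all genes with all cultures. Within each culture, AZD5582 was above DMSO for 22 genes in culture 91, 31 in culture 94 and 32 in culture 95, with median log2 ratios of 0.33, 0.83 and 0.98. The share of all genes above DMSO within each culture was not computed. In cultures 91, 94 and 95 the neutrophil genes summed to 163.8, 3424 and 312.5 CPM with AZD5582, against 1965, 9485 and 3808 CPM in DMSO (0 of 7 called). The monocyte or macrophage genes summed to 326.1, 735.6 and 604.3 CPM with AZD5582, against 897.1, 1211 and 1496 CPM in DMSO (3 of 9 called lower, 1 higher). The 8 cDC1 genes summed to 3748, 1615 and 2229 CPM with AZD5582, against 1680, 915.0 and 1329 CPM in DMSO (0 called higher, 3 lower). The 6 DC genes summed to 6562, 7115 and 8303 CPM with AZD5582, against 9318, 8983 and 12770 CPM in DMSO (0 of 6 called). The part of these lists in the values of the 32 genes was not tested.

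Insm1 had 21.8, 28.7 and 32.9 CPM at FL t0, 43.0, 41.6 and 47.6 CPM in FL DMSO and 94.3, 106.9 and 154.5 CPM at FL 0.05 µM in cultures 91, 94 and 95. The 3 groups did not overlap, and the DMSO library of culture 91 lay between those of cultures 94 and 95. Over its own t0, however, the log2 ratio was 0.98 in culture 91, against 0.54 in culture 94 and 0.53 in culture 95. The log2 difference of Insm1 for 0.05 µM over DMSO was 1.42 ± 0.22 (edgeR adjusted p = 0.0213) and 1.39 ± 0.15 with the block (edgeR adjusted p = 0.0054). It was not called without the DMSO library of culture 94 or 95 or the AZD5582 library of culture 95 (edgeR adjusted p = 0.0687, 0.0902 and 0.066).

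Fscn1 had 1207, 1467 and 1728 CPM at FL t0, 7069, 2767 and 3445 CPM in FL DMSO and 13920, 7420 and 10370 CPM at FL 0.05 µM, in the same order of cultures. Each library with AZD5582 was above all DMSO libraries, the closest being culture 94 with the compound and culture 91 with DMSO. The log2 difference was 1.25 ± 0.39 with all cultures (edgeR adjusted p = 0.141) and 1.56 ± 0.22 without culture 91 (edgeR adjusted p = 0.00445). With all cultures and the block Fscn1 was not called.

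Serpinb6b had 380.2, 356.8 and 421.6 CPM at FL t0, 2260, 715.3 and 903.7 CPM in FL DMSO and 3595, 1944 and 3337 CPM at FL 0.05 µM. Serpinb9 had 367.6, 469.4 and 476.1 CPM at FL t0, 2816, 888.0 and 1001 CPM in FL DMSO and 3546, 2319 and 3544 CPM at FL 0.05 µM. For both, the DMSO library of culture 91 was above the culture 94 library with AZD5582. Their log2 differences were 1.19 ± 0.43 and 0.99 ± 0.44 with all cultures (edgeR adjusted p = 0.199 and 0.283) and 1.75 ± 0.27 and 1.68 ± 0.22 without culture 91 (edgeR adjusted p = 0.00616 and 0.00341). With all cultures and the block neither gene was called.

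Acvr1c had 2.39, 1.83 and 2.10 CPM at FL t0, 8.65, 3.16 and 3.64 CPM in FL DMSO and 22.3, 11.7 and 21.9 CPM at FL 0.05 µM. The libraries with AZD5582 were all above the DMSO libraries. Its log2 difference was 1.85 ± 0.42 (edgeR adjusted p = 0.0582) and 1.92 ± 0.29 with the block (edgeR adjusted p = 0.0155).

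In each FL culture Dapk2 had a lower level in DMSO than at the start. It had 110.2, 66.6 and 78.9 CPM at FL t0, 28.9, 30.5 and 39.7 CPM in FL DMSO and 67.3, 46.7 and 67.7 CPM at FL 0.05 µM. The DMSO libraries were below both other groups without overlap, and in each culture the library with AZD5582 lay between DMSO and t0. The difference of 0.05 µM over DMSO was 0.87 ± 0.24 (edgeR adjusted p = 0.0975) and 0.85 ± 0.19 with the block (edgeR adjusted p = 0.0411).

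Grasp, Slco5a1 and Lad1 showed small differences with AZD5582 in the FL cultures. Grasp had 86.3, 114.8 and 99.9 CPM at FL t0, 268.2, 177.5 and 207.1 CPM in FL DMSO and 255.7, 197.0 and 218.7 CPM at FL 0.05 µM (log2 0.04 ± 0.20 for 0.05 µM over DMSO, edgeR adjusted p = 0.953). Slco5a1 had 33.1, 40.1 and 48.6 CPM at FL t0, 239.8, 79.9 and 106.6 CPM in FL DMSO and 163.7, 123.3 and 164.6 CPM at FL 0.05 µM (0.08 ± 0.38, adjusted p = 0.945). Lad1 had 73.6, 102.3 and 117.2 CPM at FL t0, 249.0, 90.8 and 133.8 CPM in FL DMSO and 236.6, 159.5 and 212.8 CPM at FL 0.05 µM (0.36 ± 0.36, adjusted p = 0.661). The ranges of DMSO and of the compound overlapped for all 3. None of the 3 was called with all cultures and the block. None was called without culture 91, whereas without it and with the block Slco5a1 (0.67 ± 0.14) and Lad1 (0.78 ± 0.14) were (edgeR adjusted p = 0.00256 and 0.00121).

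**Figure D5:**
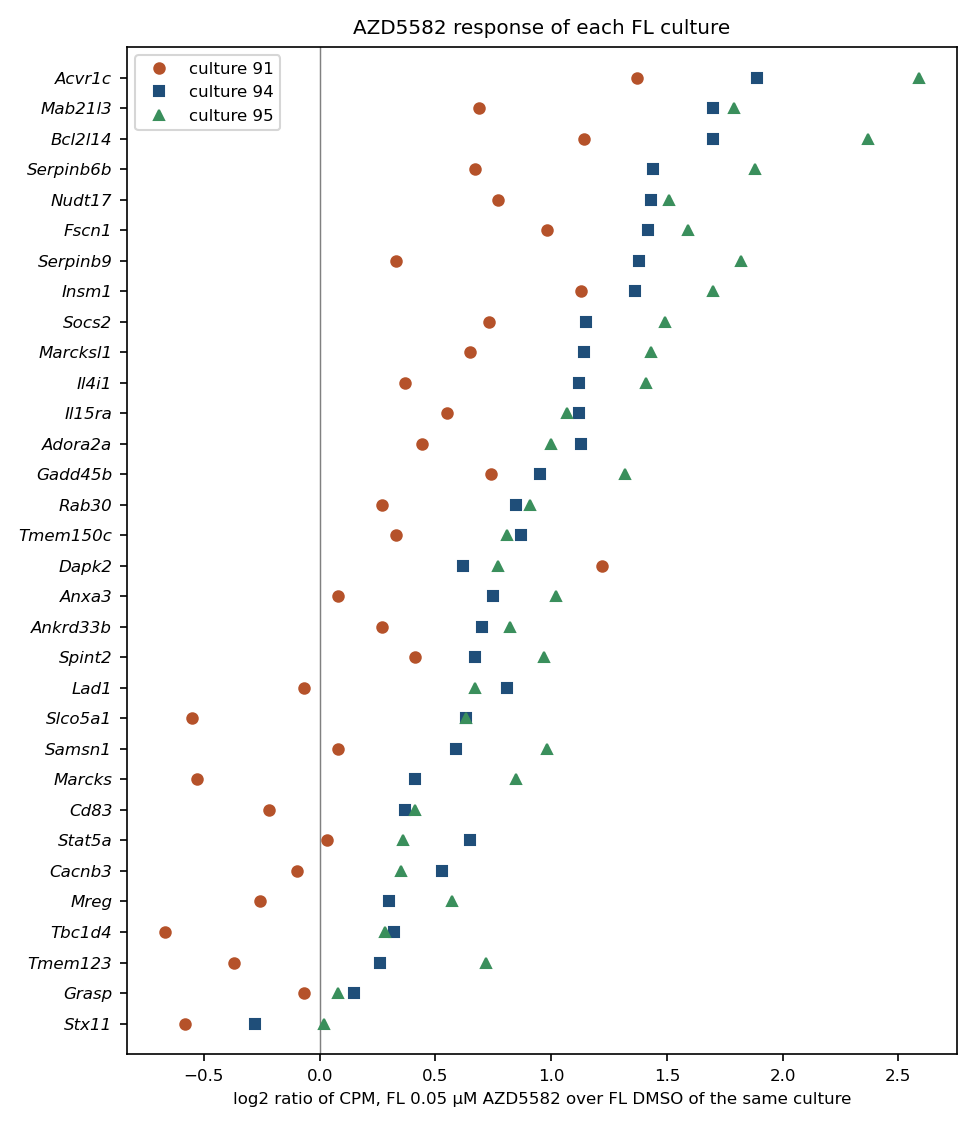
Log2 ratio of CPM of FL 0.05 µM AZD5582 over FL DMSO within each culture for the 32 genes, ordered by the median of the 3 cultures. Culture 91 lies to the left of both others for 31 of the 32 genes and below 0 for 10, culture 94 is below 0 for 1 gene (Stx11) and culture 95 for none. For Dapk2 culture 91 lies to the right of both others.

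The response of the FL cultures at 0.05 µM minus that of the GM cultures at 0.1 µM was tested in the model of all 24 libraries. The doses, the days of culture (16 and 8) and the culture numbers differ as well, so these and culture type cannot be told apart. Of the 32 genes, 3 had a lower response in the FL cultures and none a higher one (0.707% and 0.967% of all genes). The difference was -1.78 ± 0.25 for Dapk2 (edgeR adjusted p = 7.08e-04), -1.36 ± 0.23 for Grasp (edgeR adjusted p = 0.00402) and -1.04 ± 0.24 for Mreg (edgeR adjusted p = 0.0293). Mreg was not called without GM DMSO replicate 1 or 2 or GM 0.1 µM replicate 1 or 2 (edgeR adjusted p = 0.108, 0.0689, 0.077 and 0.0888). With the replicate numbers as a block Rab30 was called lower as well (-0.79 ± 0.19, edgeR adjusted p = 0.0212; 1.8% of all genes were called lower and 2.47% higher). Without culture 91 it was 4 lower and 1 higher, Mab21l3 (1.82% and 2.76% of all genes). The log2 change over 24 h was lower in the FL than in the GM cultures for 22 of the 32 genes (3.96% of all genes were) and higher for none (0.881% of all genes). This is a description because a rise over time helped to choose the genes.

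A further 28 genes of the DC maturation programme that are not among the 32, including those the list left out, were followed for comparison. They were chosen with earlier results of these data known, so their counts here and below are a description. In the GM cultures 26 of the 28 were called higher and 1 lower at 1 µM over DMSO, 25 and 1 at 0.5 µM, and 23 and 0 at 0.1 µM. Of all genes 26.9% were called higher at 1 µM, 25.8% at 0.5 µM and 19.9% at 0.1 µM, and 28.2%, 27.7% and 20.3% lower. Over 24 h in DMSO 22 were called higher and 2 lower, against 27.2% and 20.3% of all genes. Their median log2 difference was 1.16 at 1 µM and 1.94 over 24 h. Ccr7 averaged 6385 ± 846 CPM at GM 1 µM and 1720 ± 202 CPM in GM DMSO (log2 2.00 ± 0.14, edgeR adjusted p = 1.10e-09).

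Cd86 and Cd80 were not called over 24 h in the GM cultures and rose with the compound. The costimulatory gene Cd86 averaged 101 ± 6.67 CPM at GM t0, 117 ± 5.04 CPM in GM DMSO and 580.5 ± 80.4 CPM at 1 µM (log2 2.42 ± 0.14 over DMSO, edgeR adjusted p = 1.05e-10). Its partner Cd80 averaged 51.1 ± 3.27, 51.5 ± 1.71 and 292 ± 54.8 CPM in the same groups (2.62 ± 0.19, adjusted p = 2.80e-09). The chemokine gene Ccl17 was lower in GM DMSO, with 136 ± 90.4 CPM, than at GM t0, with 896 ± 55.6 CPM. Icosl was the 1 gene called lower at 1 µM (-0.96 ± 0.24, edgeR adjusted p = 0.00389). In the FL cultures 3 of the 28 were called higher with 0.05 µM, 6 with the block and 20 without culture 91, against 1.62%, 3.69% and 8.03% of all genes, and the 3 were Ccl22, Cd200 and Cd86.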

How the data were processed

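Messenger RNA of 24 mouse DC libraries was made into libraries with a stranded kit from RNA with an integrity number above 8, per the labels' protocols. The submitters' processing notes list STAR 2.7.3a, HTSeq 0.12.4, DESeq2 1.30.1 and the build GRCm39. The sources used here name neither the annotation release nor a strand setting for counting. Each deposited file holds unnormalised counts by gene. Lines naming no gene (10.98% to 16.4% of counts) were left out. Symbols came by identifier from GENCODE M21 (GRCm38), which named 52081 of 55414 identifiers.

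Counts were fitted with edgeR 4.0.16 in R 4.3.3 (TMM scaling, filterByExpr, robust quasi-likelihood), without covariates, in 3 models of the 15 GM, 9 FL and all 24 libraries (16152, 15961 and 17262 genes, biological coefficients of variation 0.146, 0.39 and 0.272). The first served GM, the second FL and the third cross-culture comparisons. Adjusted p-values are Benjamini-Hochberg values over all genes, and SE is that of the log2 difference, as its size over the square root of F. CPM are counts-per-million values over the TMM-scaled library total. Depth limits the precision of genes near 0 counts, such as Acvr1c at GM t0. No pair of libraries was identical. The code was tested on simulated counts with known changes. For FL 0.05 µM over DMSO, 1% of simulated log2 changes of 1 and 77% of those of 2 were recovered. For GM 1 µM over DMSO it was 95% and 100%, and for the difference of responses 8% and 82%.

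The members and lists were chosen with earlier results of these data known. Genes given in every library were the 6 with the largest called rise at 1 µM, the 6 with the largest change over 24 h, any called lower at 1 µM or in opposite directions in the 2 cultures, and any higher at 1 µM but not over 24 h. Other genes are given by group means ± SD and counts. The genes singled out from the list of 28 were chosen after their values were seen.

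Whether shared numbers pair libraries was checked by the correlation of deviations from group means, with a threshold of 0.1 for every pair. All 9 same-numbered FL pairs passed (0.135 to 0.689), so the block is given beside the FL counts of calls. For single genes its values are given where it made a call. GM numbers, which the titles repeat in each group, did not meet it and were not taken to pair. Alternatives were median-of-ratios scaling, no filter, DESeq2 1.42.0, the replicate block, compared groups only, all libraries in 1 model, a 2-fold minimum and leaving out each library. Leaving out culture 91, with and without the block, was chosen after seeing the data.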

Additional observations from a re-analysis of the deposited data

Results flagged for a closer look

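For 3 of the 32 genes the response to AZD5582 differed between the culture types by a test of the difference itself, FL at 0.05 µM over DMSO minus GM at 0.1 µM over DMSO. The values were -1.04 for Mreg, -1.36 for Grasp and -1.78 for Dapk2 on the log2 scale (edgeR adjusted p = 0.0293, 0.00402 and 7.08e-04). Dapk2 responded by 0.87 ± 0.24 in the FL and 2.73 ± 0.12 in the GM cultures, Grasp by 0.04 ± 0.20 and 1.47 ± 0.12, and Mreg by 0.17 ± 0.22 and 1.28 ± 0.13 (log2 ± SE). The doses, the days of culture and the culture numbers differ between the arms. Dapk2 and Grasp kept the call in all 12 fits that left out 1 library and without culture 91. Mreg lost it without GM DMSO replicate 1 or 2 or without GM 0.1 µM replicate 1 or 2 (adjusted p = 0.108, 0.0689, 0.077 and 0.0888).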

How the results depend on the processing

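In the GM cultures 31 of the 32 genes were called higher at each dose under every other scaling, tool, filter, block, set of libraries and left-out library tried with GM and FL in separate models, except that at 0.1 µM Slco5a1 joined them without a filter and with the block. With a 2-fold minimum 17, 26 and 28 were at 0.1, 0.5 and 1 µM. In the model of all 24 libraries 24, 28 and 28 were, and 3874 of all genes at 0.1 µM against 6503. The 1 gene called lower over 24 h (Dapk2) became 0 with compared groups only, with all 24 libraries, and in a range of 0 to 1 when 1 library was left out. For 0.5 over 0.1 µM, the 7 called genes became 13 without a filter, 17 by DESeq2, 14 with the replicate block, 18 with compared groups only and 0 with all 24 libraries (85 genes in all, against 1849), and 3 to 7 when 1 library was left out (1062 to 1737 in all). For 1 over 0.5 µM, 0 genes in all became 77 without a filter, 8 by DESeq2 and 0 to 1 when 1 library was left out. Genes higher over 24 h only became 4 and those higher with AZD5582 only 3 with a 2-fold minimum, and the first 4 with all 24 libraries.

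FL results depended most on the processing. Called genes higher over 24 h (21) became 4 with compared groups only and 0 to 23 when 1 library was left out, and lower ones 0 to 1. Of all genes, 1619 became 3503 by DESeq2, 3107 with the replicate block, 582 with compared groups only, 5307 with all 24 libraries, 3640 without culture 91 and with the block, and 13 to 1454 when 1 library was left out. With 0.05 µM the 1 called gene became 2 without a filter, 7 by DESeq2, 4 with the replicate block, 0 with compared groups only, 14 with all 24 libraries, 21 without culture 91, 28 without it and with the block, and 0 to 20 when 1 library was left out. The same settings, from DESeq2 on, gave 1526, 1098, 31, 2721, 2283 and 3958 of all genes against 463, and 17 to 1983 when 1 library was left out. Genes called higher at both FL steps (0) became 5 by DESeq2, 2 with the block, 12 with all 24 libraries, 13 without culture 91, 22 without it and with the block, and 0 to 6 when 1 library was left out. Those higher over 24 h only (21) became 4 with compared groups only, 8 without culture 91, 4 without it and with the block, and 0 to 23 when 1 library was left out. Those higher with AZD5582 only (1) became 2 without a filter, by DESeq2, with the block and with all 24 libraries, 0 with compared groups only, 8 without culture 91, 6 without it and with the block, and 0 to 14 when 1 library was left out.

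For the difference of responses, 3 lower genes became 5 by DESeq2 and 2 to 5 when 1 library was left out, and 0 higher ones 1 without culture 91 (Mab21l3) and 0 to 1 when 1 library was left out. Of all genes, 289 became 187 without a filter, 646 by DESeq2, 738 with the replicate block, 800 without culture 91 and 93 to 591 when 1 library was left out. For the difference of the 24 h changes, 835 became 503 without a filter, 1685 with the block, 2596 without culture 91 and 486 to 1869 when 1 library was left out. Counting only values called in the reported or the alternative fit, 1 gene changed sign, Anxa3 in that last contrast, with -0.52 without culture 91 against 0.12. A further 108 values, of 51 gene differences called in neither fit, also changed sign, among them Socs2 in that contrast and Tbc1d4 with 0.05 µM. The cause was not tested in any case. In the GM cultures the replicate numbers paired the libraries less clearly: 7 of 30 same-numbered pairs had a correlation of deviations over 0.1 (0.01 to 0.226). All the same, each of the 15 libraries correlated best with one of its own number. The median correlation was 0.077 for same-numbered pairs and -0.0385 for other pairs. GM titles repeat these numbers in each group, but the sources used here do not say what they stand for. Whether GM libraries of the same number are pairs is therefore not settled. In the GM cultures the block moved a count of calls by over 1.5 times only for 0.5 over 0.1 µM, and it added the call of Slco5a1 at 0.1 µM (edgeR adjusted p = 0.0392). Median-of-ratios scaling moved the median of all genes by at most 0.08. Counts of 0 or near 0 limit Acvr1c at GM t0.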
